A study of Mus musculus with 2 samples.

Results

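Broad replicated peaks are the widest stretches of open chromatin that were called in both libraries of this ATAC-seq study of mouse hepatic stellate cell nuclei. A peak of replicate A was taken as a member when it was 500 bp or wider and overlapped, by 1 bp or more, a peak of replicate B that was also 500 bp or wider. This rule took 507 peaks, which is 2.16% of the 23452 peaks of A that overlapped any peak of B. The list of A held 36577 peaks in all and the list of B 28794. The comparison set was the 22041 replicated peaks under 500 bp in both lists, called narrow below, and 904 replicated peaks that were wide in 1 list alone were kept out of it. The members were chosen by width, so widths and the values of the same peak call are given as descriptions, with no test.

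Both samples formed 1 group, replicates A and B, of sorted stellate cell nuclei from mice of strain C57BL6/JBomTac that the labels call healthy and that were fed chow. The mice carried the allele Gt(ROSA)26Sortm1(mCherry-Rpl10a-Flop)Kra together with the transgene Tg(Lrat-cre)1Rshw, on a background given as B6.Cg, so the sorted label, mCherry-RPL10A, marks cells in which Lrat sequences drove Cre. Age, sex and the number of mice per library are not given in the sources used here. No label ties A and B to different animals, and their differences may be technical. In the list of B, unlike that of A, the peak names start with a word for oil. The labels, which give chow and control for both, were followed. Library depth is unknown, because no read counts were used here, and every interval covers counting error over peaks, not mice. A replicated summit within 1 kb of a gene end stood at 27 of 35 stellate cell identity and pericyte genes. It stood at 15 of 31 stellate cell transcription factors (48.4%), beside 41.3% of all protein-coding genes. The counts were 5 of 39 hepatocyte, 9 of 30 sinusoidal endothelial, 3 of 27 Kupffer and myeloid and 3 of 23 cholangiocyte genes. Portal fibroblast, smooth muscle and mesothelial genes had 4 of 26, other organ genes 4 of 36 and lymphocyte genes 0 of 25. These lists were chosen with earlier results of these data known, so they are not an independent check on the label.

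Stellate cells are the pericytes of the liver sinusoid, which store vitamin A as retinyl esters and turn into contractile, matrix-producing cells in injury. In ATAC-seq the Tn5 transposase cuts and tags DNA that is not wrapped around nucleosomes or otherwise covered. Active promoters, above all those in CpG islands, usually have a nucleosome-depleted stretch just upstream of the transcription start. A peak wider than a single such stretch can cover several neighbouring open sites or a longer array of factors. The width of a called peak also depends on how many reads stand behind it.

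Promoters under broad peaks are shown first, since the members' position around gene starts and the letters there are what the results below turn on. Each runs 5′ to 3′ along the gene, from 250 bases before to 50 bases from the start, as RefSeq gives it for GRCm38.p6, the assembly that mm10 shares. Capitals mark matches, on either strand, to the motifs searched: TATAAA (the TATA box), GGGCGG (the GC box of SP and Kruppel-like factors), CCAAT (the box of NF-Y), TGACTCA (AP-1), TGACGTCA (CREB and ATF), CCGGAAG (ETS), GCATGCGC (NRF1) and TTGGCA (a nuclear factor I half-site). The first 4 are at broad peaks: Jun at chr4:95052173-95052472, minus strand, Klf3 at chr5:64803271-64803570, plus strand, Myh9 at chr15:77842126-77842425, minus strand, and Arntl at chr7:113207215-113207514, plus strand. The peak of A covers the whole stretch at Jun, Myh9 and Arntl, while at Klf3 it ends at base 64803495, before the start and the last match. Lrat, at chr3:82903925-82904224 on the minus strand, is at a narrow peak and was chosen for contrast after its values were seen.
Jun: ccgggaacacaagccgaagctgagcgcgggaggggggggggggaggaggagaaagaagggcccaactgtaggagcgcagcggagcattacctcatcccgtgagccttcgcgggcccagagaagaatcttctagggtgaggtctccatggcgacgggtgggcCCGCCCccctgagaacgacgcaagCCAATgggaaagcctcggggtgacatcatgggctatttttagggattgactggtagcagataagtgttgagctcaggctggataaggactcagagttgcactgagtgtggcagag
Klf3: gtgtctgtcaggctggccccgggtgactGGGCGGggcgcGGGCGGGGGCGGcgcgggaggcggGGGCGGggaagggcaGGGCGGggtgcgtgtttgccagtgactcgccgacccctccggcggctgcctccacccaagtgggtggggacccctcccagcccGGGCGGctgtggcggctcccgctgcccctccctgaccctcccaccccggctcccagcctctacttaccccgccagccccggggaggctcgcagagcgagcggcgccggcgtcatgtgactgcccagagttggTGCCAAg
Myh9: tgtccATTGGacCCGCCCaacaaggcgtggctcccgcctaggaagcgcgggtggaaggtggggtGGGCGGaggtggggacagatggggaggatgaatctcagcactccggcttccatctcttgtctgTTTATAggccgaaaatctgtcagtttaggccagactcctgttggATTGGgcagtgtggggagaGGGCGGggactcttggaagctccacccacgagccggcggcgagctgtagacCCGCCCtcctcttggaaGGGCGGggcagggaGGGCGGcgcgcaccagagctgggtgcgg
Arntl: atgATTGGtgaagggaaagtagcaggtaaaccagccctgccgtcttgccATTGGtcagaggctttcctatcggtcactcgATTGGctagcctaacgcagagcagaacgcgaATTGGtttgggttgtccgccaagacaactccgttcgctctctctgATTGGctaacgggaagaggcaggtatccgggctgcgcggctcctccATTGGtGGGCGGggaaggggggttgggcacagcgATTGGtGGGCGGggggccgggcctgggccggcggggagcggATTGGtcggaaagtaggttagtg
Lrat: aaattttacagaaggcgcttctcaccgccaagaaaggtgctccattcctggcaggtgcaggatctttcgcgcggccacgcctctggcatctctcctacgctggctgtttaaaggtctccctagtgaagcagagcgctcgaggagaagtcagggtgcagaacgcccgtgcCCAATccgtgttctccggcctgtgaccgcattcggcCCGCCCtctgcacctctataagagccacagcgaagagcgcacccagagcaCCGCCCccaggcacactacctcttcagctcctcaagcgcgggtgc
The promoter of Klf3 holds 6 matches to GGGCGG and that of Myh9 holds 6, beside 2 to CCAAT and 1 to TATAAA. The Arntl stretch belongs to a start inside the gene span and holds 8 matches to CCAAT and 2 to GGGCGG. Jun and Lrat hold 1 and 2 matches to GGGCGG, and 1 each to CCAAT. Such a match is a description of the letters and does not show that a factor binds there.

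The members were moderately wider than the limit in both libraries. Their width had a median of 588 bp in A (quartiles 546 to 648, range 500 to 3290) and 574 bp in B (quartiles 534.5 to 635, range 500 to 3286). By the smaller of the widths in A and B, 277 of the 507 reached 550 bp, 137 reached 600 bp, 50 reached 700 bp, 17 reached 800 bp and 3 reached 1000 bp. Most members thus lie close to the limit. Together the members covered 312952 bp in A.

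**Figure D1:**
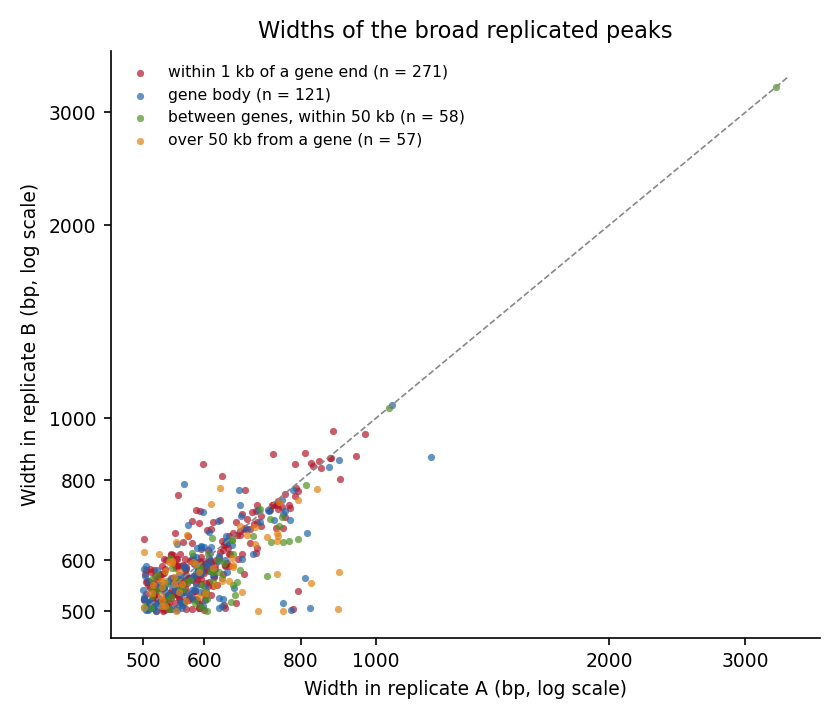
Width of each of the 507 broad replicated peaks in replicate A (x axis, bp, log scale) against its partner in replicate B (y axis, bp, log scale), 1 point a peak, coloured by position relative to protein-coding genes. Most points lie near the lower limit of 500 bp in both libraries, and 3 peaks reach 1000 bp in both.

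Wide calls found a partner more often than calls at large. Of the 1136 entries of A of 500 bp or more, 1110 (97.7%) overlapped an entry of B, against 64.1% of all entries of A. Of the 765 wide entries of B, 757 (99.0%) overlapped an entry of A, against 81.7% of all entries of B. A wider interval has more room to meet a partner by 1 bp. These shares were not matched on fold enrichment or −log10 q either, so they are descriptions only. The width itself was repeated less well: 603 wide entries of A met only narrower partners in B, and 301 replicated entries under 500 bp in A met a wide partner. Of the members, 503 had 1 partner in B and 4 had 2.

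The limit cuts through a continuous range. Just inside it lay the peaks at chr8:11557949-11558468 (520 bp in A, 500 in B), in a gene body, chr8:26119110-26119629 (520 and 500 bp), at the ends of Hook3 and Rnf170, and chr13:49461511-49462010 (500 and 540 bp), in a gene body. Just outside lay the peaks at the ends of Enho (chr4:41640031-41640535, 505 bp in A and 499 in B), Rps23 (chr13:90922699-90923222, 524 and 499 bp) and Serf2 (chr2:121448916-121449414, 499 and 507 bp). Their fold enrichments overlapped, with 11.4, 14.9 and 14.0 in A inside and 12.8, 16.7 and 15.8 outside. In B they were 11.5, 13.7 and 8.72 inside and 9.47, 17.0 and 15.1 outside. The smaller width lay less than 10 bp above the limit or at it in 66 members, and up to 10 bp below it in 68 replicated peaks.

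Broad peaks were of upper middle height and did not include the tallest. Fold enrichment is the authors' ratio of reads over the local background at the summit. Its median over the members was 14.9 in A (quartiles 12.3 to 17.2, highest 26.9) and 13.8 in B (quartiles 11.4 to 15.8, highest 22.8). Narrow replicated peaks had medians of 11.7 and 10.3 and reached 41.6 and 42.8. The authors' −log10 q differed more, with a median of 47.3 in A for members and 21.1 for narrow peaks. Over the 507 members, Spearman's rho was 0.604 between the widths of A and B and 0.770 between their fold enrichments. Width and fold enrichment in A had a rho of −0.275 over the members and 0.541 over all 23452 replicated peaks. Peaks share a library in these correlations, so they are descriptions only.

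The edges of broad peaks lay close together in A and B, which the rule favours, while the summits wandered inside them. The lower and upper edges differed by medians of 22 and 23 bp between the libraries, against 26 and 26 bp in narrow peaks. Members had to be wide in both lists, so peaks narrowed in either list by a moved edge were left out. In the 904 replicated peaks wide in only A or only B, these medians were 52 and 50.5 bp. The closeness of the edges is thus not independent of the rule. The summits of broad peaks differed by a median of 47 bp, against 24 bp in narrow ones. In 78 members (15.4%) the summits of A and B were over 200 bp apart, against 247 of the narrow peaks (1.12%). A wider interval leaves more room for this distance, so it is not independent of the rule. The broad peak at Sp1 is an example, with its summit at base 102405976 of chromosome 15 in A and 102406189 in B.

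At matched fold enrichment, broad peaks lay at gene ends more often than narrow ones. Of the 507 members, 271 (53.5%, 95% Wilson interval 49.1 to 57.8) had their summit no farther than 1 kb from a protein-coding gene end, against 36.7% of narrow peaks and 37% of all replicated peaks. Weighted to the members' deciles of fold enrichment in A, the narrow share was 43.7%. The Mantel-Haenszel odds ratio over these 10 strata was 1.55 (95% interval 1.28 to 1.87). The choice of the matching value decided the direction: within deciles of −log10 q in A the narrow share was 58.8% and the odds ratio was 0.765 (0.628 to 0.932). After Benjamini-Hochberg adjustment, over 4 position classes here and over 15 comparisons below, an odds ratio was called where its adjusted p was below 0.05. The one over fold enrichment was called. Width, fold enrichment and q come from the same reads, and which of the matched values compares like with like was not tested. With the width limit put on A alone the odds ratio was 1.03, and with the wide entries of B alone it was 1.15, both with intervals that held 1.

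The rest of the members were spread over gene bodies and the space between genes. Of the members, 121 (23.9%) lay in a gene body beyond 1 kb from its ends, against 31.2% of narrow peaks at matched fold enrichment, an odds ratio of 0.685 (0.555 to 0.846). Between genes and within 50 kb of one lay 58 (11.4%), against 16.0%, an odds ratio of 0.676 (0.511 to 0.893). Beyond 50 kb from any protein-coding gene lay 57 (11.2%), against 9.08%, an odds ratio of 1.27 (0.960 to 1.69). Matched on −log10 q, the odds ratios were 1.04 (0.837 to 1.29) for gene bodies and 0.943 (0.710 to 1.25) between genes, and 2.06 (1.54 to 2.77) beyond 50 kb, where the matched narrow share was 6.0%.

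Within the members, the position moved with height. In the lowest stratum of fold enrichment 10 of 51 broad peaks (19.6%) were at gene ends, against 23.6% of narrow peaks, and in the third 26.0% against 29.6%. In the other 8 the broad share was the higher, and it reached 82.4% against 73.7% in the highest. The 271 members at gene ends had median fold enrichments of 16.3 (A) and 14.8 (B). The medians in A were 13.8 in gene bodies, 12.5 between genes and 12.8 far from genes. Their median widths in A, at 582, 588, 609 and 591 bp in that order of places, lay close together.

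**Figure D2:**
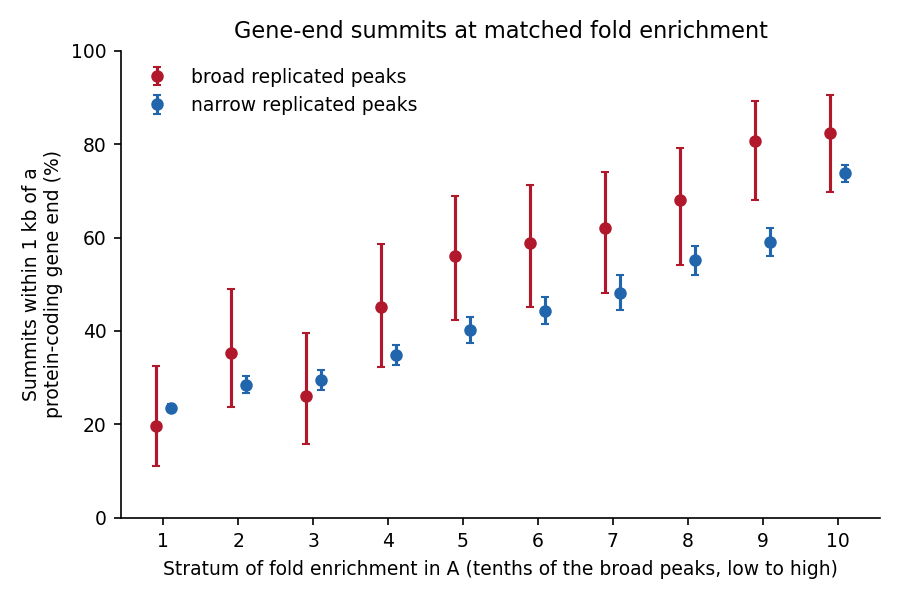
Share of summits within 1 kb of a protein-coding gene end (y axis, percent) for broad and narrow replicated peaks in 10 strata of fold enrichment in A (x axis), with 95% Wilson intervals as bars. The broad share is above the narrow one in 8 strata and below it in the first (19.6% against 23.6%) and the third (26.0% against 29.6%).

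Gene ends reached by broad peaks were starts, seldom terminations. With the starts listed in the RefSeq promoter table, which holds none on chromosome 18, 257 of 495 members (51.9%, 47.5 to 56.3) had a summit within 1 kb of a start, against 40.03% of narrow peaks at matched fold enrichment. The odds ratio was 1.70 (1.40 to 2.05). It was not taken within deciles of −log10 q, where that of gene ends reversed. A termination end with no listed start nearby accounted for 8 of 495 members (1.62%), against 1.31% of matched narrow peaks, an odds ratio of 1.25 (0.613 to 2.55). Starts on both strands stood within 1 kb of 23 of the 257 (8.95%), against 10.8%, an odds ratio of 0.813 (0.525 to 1.26). Ends of 2 or more protein-coding genes stood at 50 of the 271 gene-end members (18.5%), against 17.4%, an odds ratio of 1.08 (0.788 to 1.48). Divergent promoters were thus not detectably more or less frequent under broad peaks.

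Most broad peaks reached farther upstream of the start than narrow ones, and a smaller share also reached farther downstream. Broad peaks began at a median of 482 bp upstream of the nearest start in A and 476 bp in B, and ended 90 and 93 bp downstream of it. Narrow peaks began at −189.5 and −181 bp and ended at 86 and 83 bp. The median downstream edges thus lay close together and the upstream ones far apart. The upper quartile of the downstream edge differed as well, at 252 bp in A and 263 bp in B against 131 bp in both for narrow peaks. Narrow peaks whose −log10 q exceeded the members' median (n = 1610) began at −256 bp in A and −244 bp in B and ended at 88 and 85 bp. Where starts stood on 1 strand alone, the broad medians in A were −482.5 and 82.5 bp, close to those over all starts. The length of the intervals is what the rule used, so these edges are a description.

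Position by position, 68.9% of the 257 broad peaks in A and 69.3% in B covered the base 400 bp upstream of the start, against 5.19% and 4.85% of narrow ones. At 100 bp downstream the shares were 44.7% and 44.0%, against 33.1% and 32.5%, and at 200 bp downstream they were 27.6% and 26.5%, against 7.67% and 7.63%. The start itself lay inside the interval in 218 of 257 broad peaks (84.8%) and in 80.3% of narrow ones. The summit lay at a median of −143 bp in A and −120 bp in B, against −50 and −48 bp. Both sets leaned upstream: the summit was downstream of the start in 46 of 257 broad peaks (17.9%) and in 18.7% of matched narrow ones, an odds ratio of 0.952 (0.682 to 1.33), and the midpoint was upstream in 79.4% against 81.6%, an odds ratio of 0.866 (0.632 to 1.19). The summit of B lay on the same side of the start as that of A in 242 of the 257 (94.2%).

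**Figure D3:**
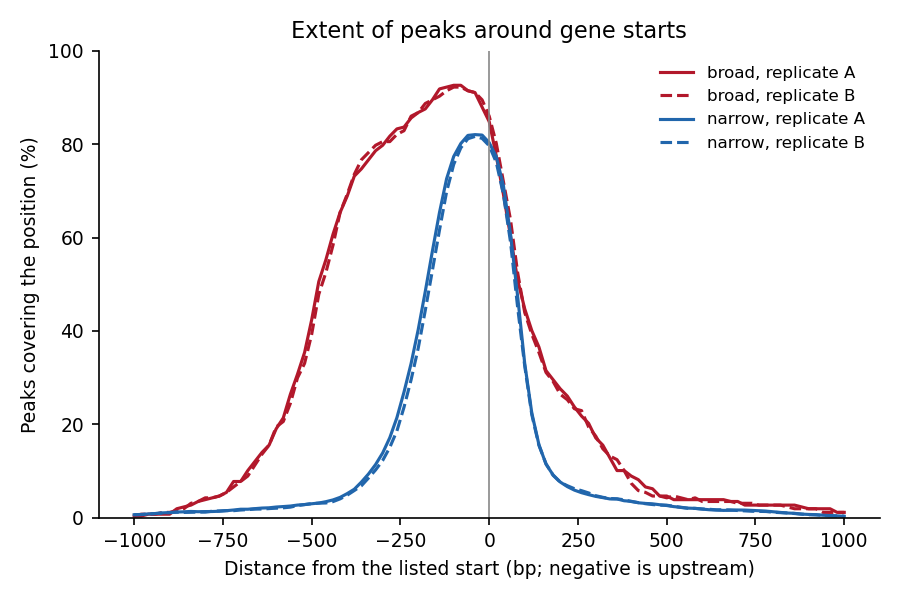
Share of peaks covering each position (y axis, percent) from upstream to downstream of the nearest listed start (x axis, bp along the gene), for 257 broad and 7168 narrow replicated peaks in A and B. Broad peaks extend upstream, with 68.9% and 69.3% covering −400 bp against 5.19% and 4.85% of narrow ones, and a smaller share extends downstream, with 27.6% and 26.5% covering 200 bp past the start against 7.67% and 7.63%.

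Promoters under broad peaks were rich in CpG and GC boxes. The 257 peaks stood at 337 listed promoters of 282 genes. GC content had a median of 65.7% there, 62% under narrow peaks (8276 promoters), 51% at promoters with no replicated peak (12291) and 56.3% over all 21263. Observed over expected CpG had medians of 0.825, 0.797, 0.286 and 0.567 in the same order. It exceeded 0.6 in 85.8% of broad promoters (81.6 to 89.1), in 80.7% of narrow ones at matched fold enrichment, in 82.9% at matched −log10 q and in 47.6% of all. Most of the contrast thus lay between open and closed promoters, and the step from narrow to broad was small.

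**Figure D4:**
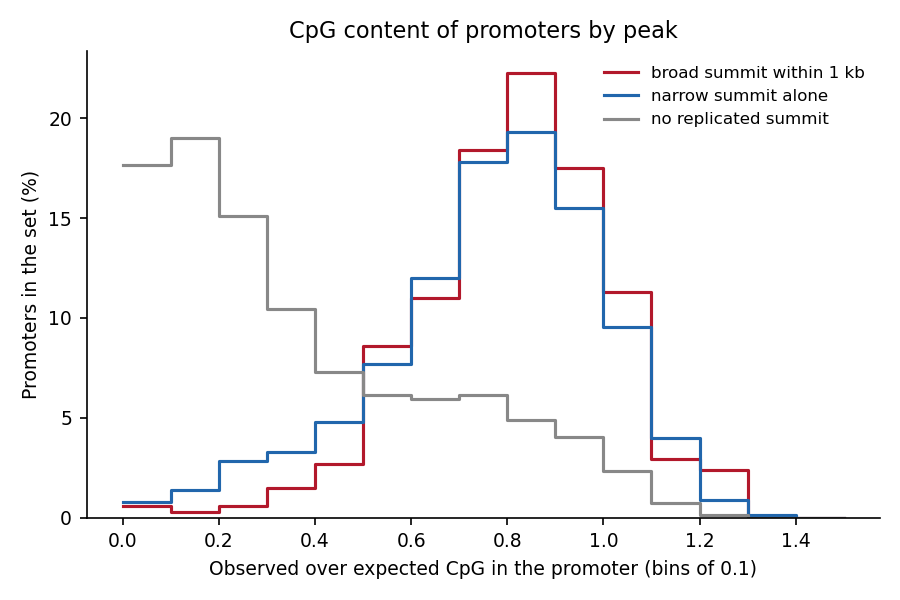
Distribution of observed over expected CpG (x axis, bins of 0.1) in the listed promoters with a broad peak, with a narrow peak and with no replicated peak, as a percent of each set (y axis). The sets with a peak centre near 0.8 (medians 0.825 and 0.797), and the set without one centres at 0.286.

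Of the 8 motifs, GGGCGG differed most from the narrow promoters in percentage points. It stood in 81.9% of broad promoters (77.4 to 85.6), against 69.9% and 73.4% of narrow ones matched on fold enrichment and on −log10 q, and 46.2% of all promoters. CCGGAAG stood in 14.8% (11.4 to 19.0), below the 22.8% and 22.4% of the matched narrow promoters and near the 11.6% of all. CCAAT stood in 50.7% (45.4 to 56.0), which is above the 41.6% of narrow promoters matched on fold enrichment while the 54.1% of those matched on −log10 q lies inside the interval, with 38.2% of all. TATAAA stood in 2.67% (1.41 to 5.0), against 5.48% and 4.802%, of which the second lies inside the interval, and 12.6% of all. TGACGTCA stood in 1.48% (0.635 to 3.43), against 3.59% and 3.33%, of which the second lies inside the interval, and 2.23% of all. For the other 3 motifs the matched narrow shares lay inside the intervals of the broad ones: TGACTCA in 2.97%, against 2.88% and 2.79% (4.66% of all), GCATGCGC in 6.23%, against 6.65% and 5.25% (3.52% of all), and TTGGCA in 8.61%, against 10.3% and 10.5% (13.1% of all). Matches to CCAAT and TTGGCA can share letters, and do so in 573 promoters. Promoters of 1 gene or of a divergent pair overlap, so they are not independent, and these shares have no test.

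Of the 21887 protein-coding genes, 322 (1.47%) had a broad summit within 1 kb of an end, and 9042 had a replicated summit there, of which 3.56% had a broad one. With 20 kb added on either side, 761 genes (3.48%) had a broad summit in the locus. A single gene stood at 221 of the 271 gene-end members and 2 genes at 49. Genes with a broad end were a little longer, with a median of 25857.5 bp, than those with narrow peaks alone (22031 bp) and all protein-coding genes (17169 bp). The lists below were chosen with earlier results of these data known, so they are described by counts with no test.

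The Kruppel-like and SP factors, zinc finger proteins that bind GC boxes, had a broad peak at 4 of the 15 members with an open end, of 17 measured. This is 26.7%, beside the background of 3.56%, and the rate among all genes open at the same fold enrichment or −log10 q would give 0.370 or 0.708 genes. Sp1, a general activator at GC boxes, had one of 788 bp in A and 778 bp in B at chr15:102405538-102406325, with fold enrichments of 11.8 and 9.56. It ran from 778 bp upstream to 9 bp downstream of the start. Sp4, its relative, had one of 644 and 627 bp at chr12:118300968-118301611, with 9.36 and 8.68. Klf9, which glucocorticoids induce in many tissues, had one of 595 and 598 bp at chr19:23140662-23141256, with 10.9 and 10.7. Klf3, a transcriptional repressor whose promoter is printed above, had one of 590 and 686 bp at chr5:64802906-64803495, with 13.8 and 12.6. It lay wholly upstream of the start, from 615 to 26 bp before it. Klf10, a TGF-beta-inducible factor, had a broad peak of 705 and 720 bp in its gene body at chr15:38298948-38299652. Klf13 and Sp2 had 6 replicated peaks each in their loci and no broad one.

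Contractile and cytoskeletal genes, which stellate cells use to narrow the sinusoid, had broad peaks at 3 of 23 open ends, of 32 measured. Matched genes would give 0.789 or 0.811. Zyx, which encodes the focal adhesion protein zyxin, had the widest of them, with 703 bp in A and 731 bp in B and fold enrichments of 14.8 and 15.3 at chr6:42349399-42350101. Myh9, the heavy chain of non-muscle myosin IIA, had 600 and 574 bp with 16.7 and 13.6 at chr15:77842114-77842713. Its peak ran from 538 bp upstream to 61 bp downstream of the start and so covers the printed promoter. Ppp1r12a, the targeting subunit of myosin phosphatase, had 505 and 579 bp with 12.3 and 10.4 at chr10:108161737-108162241. Actn1, an actin crosslinker, had a broad peak of 671 and 602 bp in its body at chr12:80230010-80230680. Mylk, the kinase of myosin light chains, had 13 replicated peaks in its locus and no broad one.

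Heat shock and ubiquitin genes, which keep proteins folded or mark them for decay, had broad peaks at 3 of 25 open ends, of 28 measured, and matched genes would give 1.08 or 1.46. Hspa8, the constitutive HSP70 chaperone, had 608 bp in A and 584 bp in B, with fold enrichments of 14.5 and 14.3, at chr9:40800712-40801319. Stip1, which links HSP70 to HSP90, had 583 and 537 bp with 17.2 and 18.3 at chr19:7039916-7040498. Dnaja1, a co-chaperone of HSP70, had 568 and 569 bp with 13.2 and 11.97 at chr4:40721941-40722508, shared with the end of Aptx.

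Circadian clock genes had broad peaks at 2 of 14 open ends, of 21 measured, and matched genes would give 0.412 or 0.645. Per1, a repressor of the clock, had 551 and 534 bp with fold enrichments of 10.1 and 9.41 at chr11:69094735-69095285. Nr1d2, the nuclear receptor REV-ERB beta, had 527 and 571 bp with 14.5 and 12.9 at chr14:18238988-18239514. Arntl, the activator BMAL1, had 589 and 583 bp with 16.5 and 15.3 at chr7:113207012-113207600. By its gene span this peak is in the gene body, but it ran from 453 bp upstream to 135 bp downstream of a listed start, over the stretch printed above. It is 1 of 39 among the 236 members away from gene ends that had a listed start within 1 kb.

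Immediate early and AP-1 genes, which respond to stimuli within minutes, had open ends in 30 of 40 members and a broad one in 1, near the background of 3.56%. That gene was Jun, an AP-1 subunit, with 659 bp in A and 514 bp in B and fold enrichments of 14.3 and 14.0 at chr4:95052150-95052808. The peak ran from 586 bp upstream to 72 bp downstream of the start. Fos, its partner, had none at its ends, and a broad peak of 578 and 617 bp with 20 and 15.7 stood 18481 bp from it at chr12:85455065-85455642. Junb and Fosb had 8 and 7 replicated peaks in their loci, none broad.

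TGF-beta and BMP signalling, splicing and autophagy genes also gave 1 gene each. Skil, a corepressor of SMAD proteins, was the 1 of 26 open TGF-beta and BMP genes, with 593 and 717 bp and fold enrichments of 16.2 and 13.2 at chr3:31094514-31095106. Hnrnpc, a pre-mRNA binding protein, was the 1 of 32 splicing genes, with 506 and 558 bp and 18.6 and 16.2 at chr14:52104009-52104514. Wipi1, a phosphoinositide-binding autophagy protein, was the 1 of 24 autophagy and lysosome regulators, with 748 and 742 bp and 14.8 and 15.4 at chr11:109611364-109612111. These shares are near the background. Ltbp1, which anchors latent TGF-beta in the matrix, had 14 replicated peaks in its locus, and Ski, another SMAD corepressor, had 9. None of them was broad.

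The lists that name the stellate cell itself had no broad gene end. The counts were 0 of 27 open stellate identity and pericyte genes, 0 of 15 stellate cell transcription factors, 0 of 18 retinoid genes and 0 of 20 fibrogenic and matrix genes. Genes matched on fold enrichment would give 0.685, 0.305, 0.553 and 0.446, so lists of these sizes could not show a deficit. The peak at Lrat, the enzyme that makes retinyl esters, was 322 bp in A and 306 bp in B at chr3:82903841-82904162, with fold enrichments of 15.6 and 16.1. It thus exceeded the members' medians in height and not in width. Reln and Mylk held 12 and 13 replicated peaks, Nfia held 15 and Col4a2 held 9, all narrower than the rule asks. The endothelial, hepatocyte, Kupffer, cholangiocyte, portal and other-organ lists had no broad gene end, of 9, 5, 3, 3, 4 and 4 open ones in that order. Genes matched on fold enrichment would give 0.238, 0.252, 0.125, 0.0399, 0.0686 and 0.0310, so these lists could not show a deficit.

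Rarb, Loxl1 and Adamtsl2, from these lists, had a broad peak in the gene body. Rarb, a retinoic acid receptor, had 612 bp in A and 629 bp in B with fold enrichments of 12.2 and 14.0 at chr14:16735157-16735768. Loxl1, a crosslinker of elastin, had 643 and 575 bp with 12.9 and 12.4 at chr9:58295763-58296405. Adamtsl2, a matrix protein that binds latent TGF-beta binding protein, had 611 and 577 bp with 7.73 and 7.31 at chr2:27088094-27088704. Among all protein-coding genes, 224 had a broad summit in the body. Cd2, a T cell and natural killer cell adhesion protein, also had a replicated broad peak in its body although 0 of 25 lymphocyte genes had an open end, and the part of other cells in it was not tested.

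**Figure D5:**
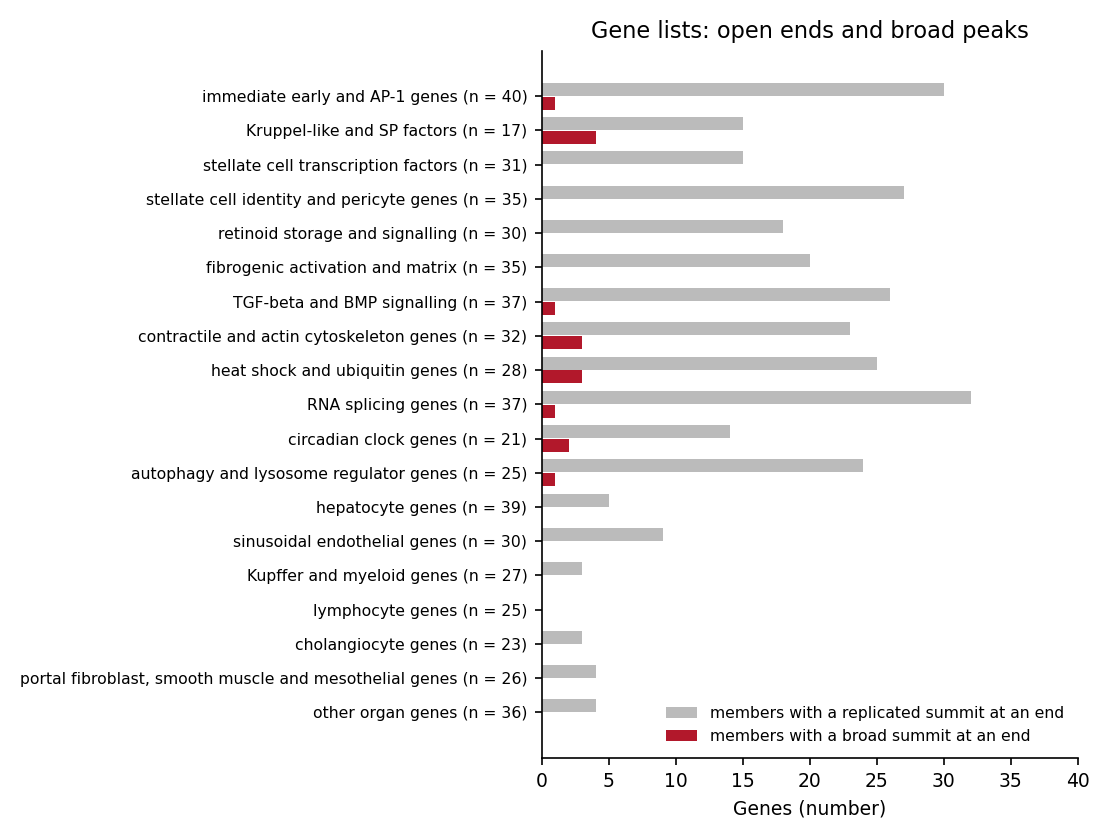
Number of genes in each list (x axis) with a replicated summit within 1 kb of a gene end and, of these, with a broad one, 1 row a list. Broad ends reach 4 of 15 open Kruppel-like and SP factors, where genes matched on fold enrichment would give 0.370. They reach none of the 27 open stellate identity genes, where matched genes would give 0.685, so that list could not show a deficit. The background is 3.56% over all genes with an open end, and the lists were chosen with earlier results known.

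The tallest broad peaks were mostly at gene ends. Hjurp, the chaperone of the centromeric histone CENP-A, ranked first by fold enrichment over A and B, with 26.9 and 20.9, at chr1:88277234-88277846 (613 bp in A, 671 in B). Nmt2, an N-myristoyltransferase, followed with 23.4 and 22.8 at chr2:3283726-3284269 (544 and 615 bp). The third was in the shared span of Spaca6 and Has1, a hyaluronan synthase gene, with 22.04 and 21.6 at chr17:17837926-17838521 (596 and 575 bp). The peak between Adam9, a membrane metalloprotease, and Tm2d2 had 21.5 and 21.9 at chr8:25016778-25017321 (544 and 524 bp). The next 6 were at Phlpp1, a phosphatase of AKT, Gpbp1, Qdpr, which recycles tetrahydrobiopterin, Hmbox1 with Ints9, Cul3, a ubiquitin ligase scaffold, and Acadm, of fatty acid oxidation. Their fold enrichments spanned 20.2 to 22.7 in A and 19.0 to 21.3 in B, and their widths 512 to 566 bp in A. So 9 of the 10 were at gene ends, beside 82.4% of all broad and 73.7% of narrow peaks in the highest stratum of fold enrichment in A.

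The 10 widest members, by the smaller of the widths in A and B and leaving out chromosome 18, were a different set, and several were low. The widest was chr1:24612851-24616140, with 3290 bp in A and 3286 bp in B and fold enrichments of 2.40 and 2.43, the lowest among the members. It and chr1:24611581-24612620 (1040 and 1039 bp) are pieces of 1 called peak, deposited with the same values, at the predicted genes Gm10925 and Gm10222. The nearest protein-coding gene, Col19a1, was 26574 bp from the first piece. As background, this stretch of chromosome 1 resembles mitochondrial DNA, and reads from such copies cannot be told apart. The second widest was in the body of Myo3a, at chr2:22589164-22590212, with 1049 bp in each library and 6.81 and 6.71, beside another member in that gene at chr2:22587539-22588320 (782 and 773 bp, 6.81 and 6.72).

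Of the other 7 of these, 6 were at gene ends and 1 lay in the body of Crlf2, a cytokine receptor gene (chr5:109556862-109558038, 1177 and 870 bp, 8.91 and 10.6). Zbtb20, a transcriptional repressor active in liver, had 968 bp in A and 946 bp in B, with fold enrichments of 11.9 and 10.9, at chr16:42874952-42875919. Ppm1b, a protein phosphatase, had 941 and 872 bp with 16.2 and 16.2 at chr17:84957121-84958061, from 880 bp upstream to 60 bp downstream of the start. Rab40c, a small GTPase, had 879 and 955 bp with 19.3 and 12.6 at chr17:25919716-25920594. Mon1b, which acts in endosome maturation, had 875 and 867 bp with 16.3 and 16.0 at chr8:113634936-113635810. Garnl3 had 873 and 866 bp that in A ran from 1 to 873 bp downstream of its listed start at chr2:33130563-33131435. Khsrp, an RNA-binding protein that destabilises mRNAs, had 845 and 857 bp with 13.0 and 13.4 at chr17:57031483-57032327.

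Few loci held more than 1 member. Of all protein-coding genes, 15 had 2 or more broad summits in the locus, and the 10 with the highest fold enrichments were Dazap1, Maml3, Prkaca, Irf3, Scaf1, Bcl7b, Gm20878, Fam205a4, Gm21953 and Fam205a3. Of these, Maml3, a coactivator of Notch, had both in its own body, among 16 replicated peaks in its locus. They were 693 bp in A and 615 bp in B with fold enrichments of 11.4 and 11.6 at chr3:51708666-51709358, and 561 and 505 bp with 18.7 and 15.2 at chr3:52046826-52047386. The members counted for Irf3, Scaf1 and Bcl7b stood at ends of their neighbours. The last 4 genes share a duplicated stretch of chromosome 4. There chr4:41942007-41942597 and chr4:42294237-42294827, 352230 bp apart, carried the same widths of 591 and 506 bp and the same fold enrichments of 15.8 and 13.8. A second pair, chr4:41926995-41927645 and chr4:42279084-42279734, had 651 and 646 bp, with 14.9 and 15.0 in A. Reads of such copies cannot be told apart, so these 4 members may be fewer sites. Other members also came in like pairs. Those at Zfp97 and Gm38396 on chromosome 17 were both 636 bp in A and 634 bp in B. Those at Srp54b and Srp54c on chromosome 12 were 553 and 558 bp in A and both 588 bp in B. Whether these pairs share reads was not tested.

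Away from any start or gene end lay 179 members (35.3%), against 54.1% of narrow peaks and 47.1% of them at matched fold enrichment, an odds ratio of 0.577 (0.474 to 0.702). Here an end or listed start of any gene kind within 1 kb was left out. This odds ratio was not taken within deciles of −log10 q, where that of gene ends reversed. Of the 179 members, 77 were in gene bodies, 49 between genes and 53 over 50 kb from a protein-coding gene. They were about as wide as the members at large, with median widths of 595 bp in A and 569 bp in B, and had median fold enrichments of 12.7 and 11.9. The member farthest from a protein-coding gene was chr2:46521145-46521696, 1404063 bp from Zeb2, with 552 and 642 bp and fold enrichments of 9.11 and 7.61.

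Broad peaks at gene ends stood alone more often than narrow ones. Another replicated summit lay within 10 kb of 147 members (29.0%), against 34.1% of narrow peaks at matched fold enrichment, an odds ratio of 0.780 (0.638 to 0.954), which was not called after adjustment. At gene ends it lay there for 52 of 271 (19.2%), against 30.6%, an odds ratio of 0.512 (0.371 to 0.706), which was called. Away from gene ends it did so for 95 of 236 (40.3%), against 37.7%, an odds ratio of 1.12 (0.856 to 1.46). A wide call can take in close neighbours that would otherwise be called apart. With neighbours under 2 kb left out, an alternative added after the data were seen, the gene-end odds ratio was 0.714 (0.505 to 1.01) and the call was lost. Another member lay within 10 kb of 4 members and within 50 kb of 32. The 4 include the 2 pieces of 1 called peak on chromosome 1. No such count was made for other peaks, so these are descriptions.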

How the data were processed

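ATAC-seq peaks were deposited as 1 list per library. Per the submitters' processing notes, the tools were MACS2, STAR 2.7.0, HOMER, bedtools, Picard and SAMtools, in roles not given, and the build was mm10. The sources used here do not state a shift for Tn5 insertion or how lists were cleaned. Each deposited entry holds the authors' fold enrichment (a ratio over local background), the −log10 p and −log10 q of their caller, a score and the summit offset. Peaks were called separately in each library. No count of reads was used here.

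Coordinates are 1-based. Genes and promoters came from RefSeq tables of GRCm38.p6, which hold 21887 protein-coding genes and give a listed start for 17492 of them, none on chromosome 18. No genome sequence was used here, so sequences away from promoters are not shown. A gene end is either boundary of a gene span. Summits outside their interval, in 2 members, were replaced by the midpoint.

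Shares have 95% Wilson intervals. Odds ratios are Mantel-Haenszel estimates over deciles of fold enrichment in A, with Robins-Breslow-Greenland intervals and Benjamini-Hochberg adjustment. Only those of the position classes were also taken within deciles of −log10 q. All odds ratios compare peaks, which are not independent replicates. In simulated data with 507 broad and 22041 narrow peaks, true odds ratios of 1, 1.5 and 2 gave medians of 0.994, 1.47 and 1.99, and 91, 94 and 94 of 100 intervals covered the truth. The simulated peaks were independent and had the same odds ratio in every stratum. The real peaks differ in this, so the simulation checks the calculation and not the coverage of the real intervals.

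The members and the gene lists were chosen with earlier results of these data known; the lists came from general knowledge. Named peaks were the 10 best by mean rank of fold enrichment, the 10 with the largest smaller width, and the 3 on either side of 500 bp, all outside chromosome 18. Named genes were the 10 with most broad peaks in the locus, genes at those peaks, and for each list up to 4 members with a broad gene end and up to 2 with the most replicated peaks and no broad one. Broad peaks in a body or locus, the far peak near Zeb2, the second peak in Myo3a, Lrat and the promoters left out of the 6 taken by rule were chosen with their values in view. Alternatives were other width limits, overlaps, windows, strata and single libraries. The work used statsmodels 0.14.6, scipy 1.17.1, matplotlib 3.10.9, pandas 2.3.3 and numpy 2.4.6 in Python 3.11.15.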

Additional observations from a re-analysis of the deposited data

How the results depend on the processing

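The number of broad peaks was set by the rule: 1677 at a limit of 400 bp, 137 at 600 bp, 25 at 750 bp, 1110 with the limit on A alone, and 765 to 1136 with 1 library left out. The gene-end share of 53.5% was 64.0% at 750 bp, 41.6% with the limit on A alone, 60.9% with a window of 2500 bp, 58.4% with all genes of the table, and 40.8% to 49.7% with 1 library left out. The odds ratio of a gene-end summit kept its direction and an interval without 1 in 19 of 22 alternatives. It was highest, at 3.92 (1.64 to 9.38), for the 25 peaks of the 750 bp limit. It reversed to 0.765 within deciles of −log10 q, and was 1.03 with the limit on A alone, 1.15 without A and 1.17 without B. The share with a neighbour was 10.3% within 5 kb, 79.3% within 50 kb and, in an alternative added after the data were seen, 23.7% from 2 to 10 kb. Its odds ratio of 0.780, not called after adjustment, was 0.560 within 5 kb, which was called. Its unadjusted interval held 1 at 50 kb (0.857), at 400 bp (0.951), at 600 bp (0.732) and from 2 to 10 kb (0.888). Genes with a broad end numbered 1045 at 400 bp and 87 at 600 bp. Summed over the lists, members with a broad peak in the locus fell from 38 to 12 in the gene body alone. A gene in more than 1 list, such as Klf10 or Rarb, counts in each. The cause of these changes was not tested beyond the smaller or larger sets they leave. No paired analysis was possible because there is 1 group. Depth is unknown, and 2 libraries limit every statement on replication.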

Other observations

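Gene families found by symbol gave few broad ends. Cytosolic ribosomal protein genes had 2 broad ends of 69 open ones, at Rps19 (677 bp in A, 675 in B) and Rps29 (519 and 533 bp), and genes matched on fold enrichment would give 3.05. Zinc finger genes named Zfp had 5 of 254, where matched genes would give 9.93. Genes whose symbols begin like those of translation factors had 3 of 58 (matched 2.54), at Eif5a, Eif2ak3 and Eef1a1. Mitochondrial complex subunit genes had 1 of 64 (matched 2.59) and solute carrier genes 3 of 131 (matched 4.82). Proteasome subunit genes had 0 of 33 (matched 1.23) and replication-dependent histone genes 0 of 30 (matched 0.958), so these lists could not show a deficit. Over chromosomes, the members' share of replicated peaks ran from 1.01% on chromosome 2 (19 of 1888, 0.645 to 1.57) to 3.40% on chromosome 7 (56 of 1646, 2.63 to 4.39) among the autosomes.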
